A study of Sus scrofa with 3 samples.

Results

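The genes of the epidermal growth factor (EGF) family described here are 5 ligands, TGFA, AREG, EREG, HBEGF and EGF, and 3 receptors, EGFR, ERBB2 and ERBB3. They were chosen by name, and every probe of the array that carried the name of one of these 8 genes, named it in its description or carried its gene identifier was taken. This gave 16 of 43603 probes, for 7 of the 8 genes, among 6525 genes with a symbol. The array name gave 11 of them, the description 4 and the gene identifier 1, and no probe was found for ERBB3 by any of these routes.

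The cells were PIE cells, a non-transformed line started from intestinal epithelium of an unsuckled newborn piglet. All cultures were grown on collagen for 3 days and all ended with 12 h of ETEC PAMPs, which are pathogen-associated molecules of enterotoxigenic Escherichia coli, bacteria that give young pigs diarrhoea. In the group called ETEC the cells had control medium before the PAMPs, in TL2937+ETEC they had 48 h with Lactobacillus jensenii TL2937, and in TL2766+ETEC they had 48 h with Lactobacillus plantarum TL2766, and the labels' design states a wash before the PAMPs. Each group had 1 culture on 1 single-colour array. Unchallenged cells were not analysed here, and no array held cells with lactobacilli alone, so an effect of the lactobacilli by themselves and an altered response to the PAMPs cannot be told apart.

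EGF family ligands are made as membrane proteins, and metalloproteases of the ADAM family cut them loose so that they can bind receptors on the same or neighbouring cells. TGF-alpha (TGFA), amphiregulin (AREG) and EGF bind EGFR, while heparin-binding EGF (HBEGF) and epiregulin (EREG) bind both EGFR and ERBB4. ERBB2 has no known ligand of its own and acts as a partner of the other receptors, and ERBB3 has little kinase activity and signals through such partners. The receptors act through RAS and ERK and through PI3-kinase, and in the gut they are known for proliferation, migration and repair of the epithelium.

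The probes are 60 bases long and each reads 1 stretch of a transcript, named here by the base of the array's transcript record at which it starts. Their place on the chromosomes is not given in the sources used here. Of the sequences that follow, 4 whole probes and the first 30 bases of 2 others are shown, since the results turn on which stretch of a gene gave signal. Capitals mark 3 cysteine codons in TGFA, of the EGF-like domain that binds the receptor, and the stop codon in frame in AREG. The HBEGF probe reads the tail inside the cell and the ERBB2 probe the kinase domain, and neither has capitals. Of the stretches shown, those at TGFA base 137 and EGF base 4746 were not well above background on every array.

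TGFA, base 137: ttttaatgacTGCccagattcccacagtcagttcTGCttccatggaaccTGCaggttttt
TGFA, base 1264, first 30 bases: gccatcaccaccctcagagatgaattctta
AREG, base 878: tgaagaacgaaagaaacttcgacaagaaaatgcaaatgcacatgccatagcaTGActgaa
HBEGF, base 547: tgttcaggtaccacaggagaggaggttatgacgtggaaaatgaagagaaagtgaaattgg
EGF, base 4746, first 30 bases: ccccacagaatttatttctaatgaaaatgg
ERBB2, base 2845: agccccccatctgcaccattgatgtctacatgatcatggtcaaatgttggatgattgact

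The ERBB2 probe at base 2845 is listed on the array as an uncharacterized protein and was named through its gene identifier in a RefSeq table. None of the 43603 probes outside the 16 shared a run of 20 bases with any of the 16 (0 found). A near copy with mismatches spread along it would escape this search.

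Levels are given as scaled intensity, which is the processed intensity of a probe after each array was brought to the same 75th percentile, in arbitrary units. A probe was taken as detected where the scanner software flagged it as well above background. The 75th percentile of the arrays lay between 459 and 503, between 60.9% and 62.5% of gene spots were well above background, and the lowest detected probe stood at 11.6 to 12.9. Levels of different EGF family probes are not compared, since probes bind with different strength. The marker levels that follow carry the same limit. With 1 array per group there was no spread between cultures, no test was made and no p-value is given. The errors that stand beside differences are those of the scanner software's error model, which covers the reading of a spot and not the culture. A second measure came from 27 probes that were spotted 5 times. Their log2 difference between arrays had a median standard deviation over spots of 0.12 when TL2937+ETEC was set against ETEC, 0.08 when TL2766+ETEC was, and 0.10 when the lactobacillus arrays were set against each other. Some of these probes spread far more, up to 0.45, 0.70 and 0.52.

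The marker genes went partly against the label of an epithelial line. Of 12 epithelial marker genes, 9 had a probe, and 3 of these were detected on all arrays. The tight junction gene OCLN stood at 1141 (ETEC), 922 (TL2937+ETEC) and 967 (TL2766+ETEC), while the keratin KRT8 (19.9, 18 and 23.9) and CLDN7 (20.5, 19 and 19.9) were close to background. KRT18, CLDN4, ESRP1 and the brightest probe of EPCAM were not well above background on any array, and of the 18 EPCAM probes 2 were detected on some array and 0 on all. KRT18, CLDN4 and CLDN7 were read by 1 probe each, and a dim probe may be one that binds poorly. All 5 endothelial markers had a probe and 4 of them were detected on all arrays, with PECAM1 at 86718, 84015 and 85368 and CDH5 at 60391, 56573 and 55877. All 7 mesenchymal markers with a probe were detected on all arrays, with VIM at 251749, 242642 and 252338. Apart from VIM and FN1 they were dim, from 28.5 to 82.9. The summed level of a list is set by its brightest probes and is given to compare arrays, not lists. It was 519701 (ETEC), 485744 (TL2937+ETEC) and 502515 (TL2766+ETEC) for the mesenchymal list, almost wholly from VIM and FN1. It was 149004, 143820 and 144201 for the endothelial list, mostly from PECAM1 and CDH5, and 1247, 1020 and 1064 for the epithelial list, mostly from OCLN. The 3 smooth muscle markers summed to 56289, 44112 and 49627, mostly from ACTA2. The 3 leukocyte markers with a probe summed to 642, 742 and 753, almost wholly from CD14, with PTPRC not well above background on any array. The EGF family values below are those of RNA from such cultures, in which fewer cells of a type and less RNA per cell cannot be told apart.

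**Figure D1:**
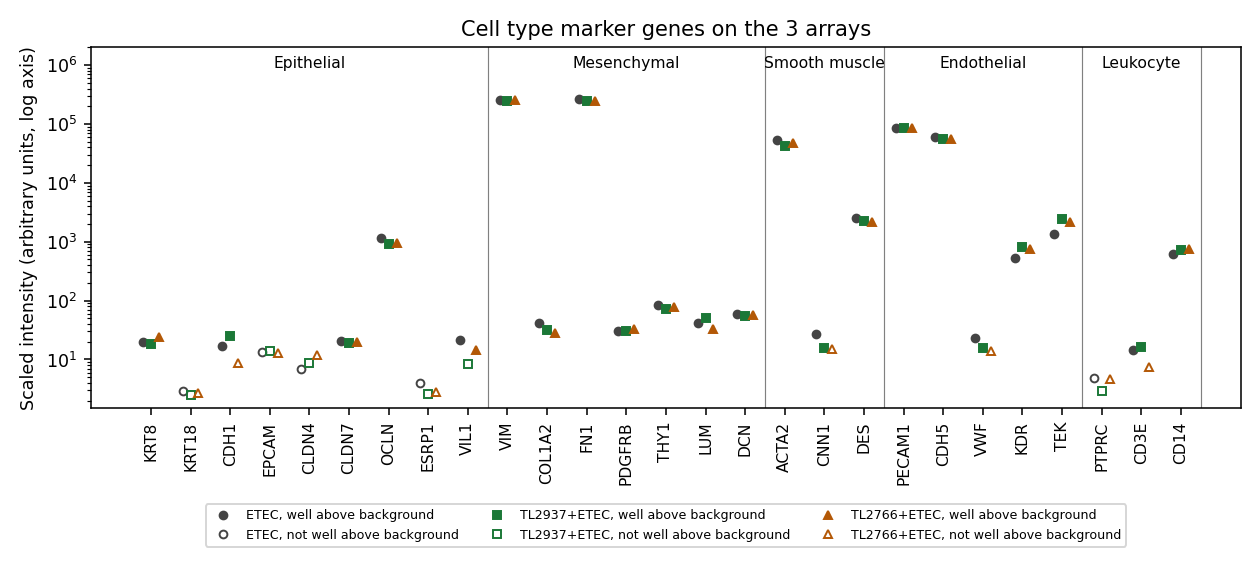
Scaled intensity (log axis) of the marker genes of 5 cell types on the 3 arrays, 1 point per gene and array, with filled points well above background and open points not. PECAM1, CDH5, VIM and FN1 sit between 55877 and 267697 in every group, while of the epithelial markers only OCLN lies above 25.1.

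Of the 7 EGF family genes with a probe, 4 were detected on all 3 arrays. They were the ligands TGFA, AREG and HBEGF and the receptor ERBB2. EGF was detected on the ETEC array alone, and EREG and EGFR were not well above background on any array. By probes, 7 of 16 were detected on all arrays, 1 on some and 8 on none.

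AREG, a ligand often induced in damaged or inflamed mucosa, gave strong signal on both of its probes. At base 1013 the scaled intensity was 20469 with ETEC alone, 18213 with TL2937+ETEC and 22443 with TL2766+ETEC. At base 878, the stretch printed above that runs over the stop codon, it was 10700, 9379 and 11306. Both probes thus had their lowest level after TL2937 and their highest after TL2766. The log2 difference from ETEC was -0.17 and -0.19 for TL2937+ETEC and 0.13 and 0.08 for TL2766+ETEC, each with a software error of 0.20. The level after TL2937 lay below that after TL2766 by a log2 difference of -0.30 at base 1013, 1.23-fold, and of -0.27 at base 878, 1.21-fold.

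HBEGF, which binds heparan sulphate at the cell surface and is known for wound repair, followed the same order. The probe at base 2545 read 3310 (ETEC), 2792 (TL2937+ETEC) and 3438 (TL2766+ETEC). The probe at base 547 read 648, 585 and 693. Against ETEC the log2 differences were -0.25 and -0.15 for TL2937+ETEC and 0.05 and 0.10 for TL2766+ETEC, with a software error of 0.20. Between the lactobacillus arrays they were -0.30, or 1.23-fold, at base 2545 and -0.25, or 1.19-fold, at base 547.

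TGFA, the ligand first found in media of transformed cells and made by many epithelia, was detected at 1 of its 4 probes. At base 1264 it read 20.9 with ETEC alone, 16.9 with TL2937+ETEC and 27.7 with TL2766+ETEC, which is close to the lowest detected signal of the arrays. The software error of a single reading there was 19%, 18.9% and 14.2%. TL2937+ETEC was 1.24-fold below ETEC (log2 difference -0.31, software error 0.39) and TL2766+ETEC was 1.32-fold above it (0.40, software error 0.34). The gap between the lactobacillus arrays was 1.64-fold, with a log2 difference of -0.71 and a software error of 0.34. With another background correction (normexp, offset 50), the differences came to -0.20, 0.02 and -0.21. The cause of this change was not tested.

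The other 3 TGFA probes were not well above background on any array and give no level. The one at base 137, whose cysteine codons are printed above, read 3.47, 2.94 and 4.26. The one at base 839 read 5.91, 5.21 and 7.08, and the one at base 1631 read 3.52, 2.5 and 5.09. TGFA values therefore rest on 1 dim probe.

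EGF, the founding ligand of the family, had 3 probes. At base 4746 it read 19.8 with ETEC alone and was well above background there, while 2.46 with TL2937+ETEC and 7.13 with TL2766+ETEC were not. Where only 1 of a pair of arrays was detected, the fold is a nominal lower bound. It was taken against the higher of the dim reading and the lowest detected signal of the dim array. By this rule EGF was at least 1.71-fold higher on the ETEC array than on the TL2937+ETEC array, and at least 1.68-fold higher than on the TL2766+ETEC array. The bound is not strict, since readings not well above background can exceed the lowest detected signal. EREG did so on the TL2766+ETEC array (12.7 beside 11.8). The software error of the bright EGF reading was 17.2%. The probes at base 1293 (2.91, 2.58 and 2.68) and base 4552 (3.84, 3.21 and 3.40) were not well above background on any array, so the EGF bound also rests on 1 dim probe.

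EREG, which lies beside AREG in the RefSeq order of pig genes of assembly Sscrofa11.1 with 0 protein-coding genes between them, was read by 1 probe at base 906. Its readings of 2.98, 2.63 and 12.7 were not well above background, so no fold and no order are given. BTC (betacellulin), a further ligand, lies on the other side of AREG. EGF is on the same chromosome, with 174 protein-coding genes between it and AREG.

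**Figure D2:**
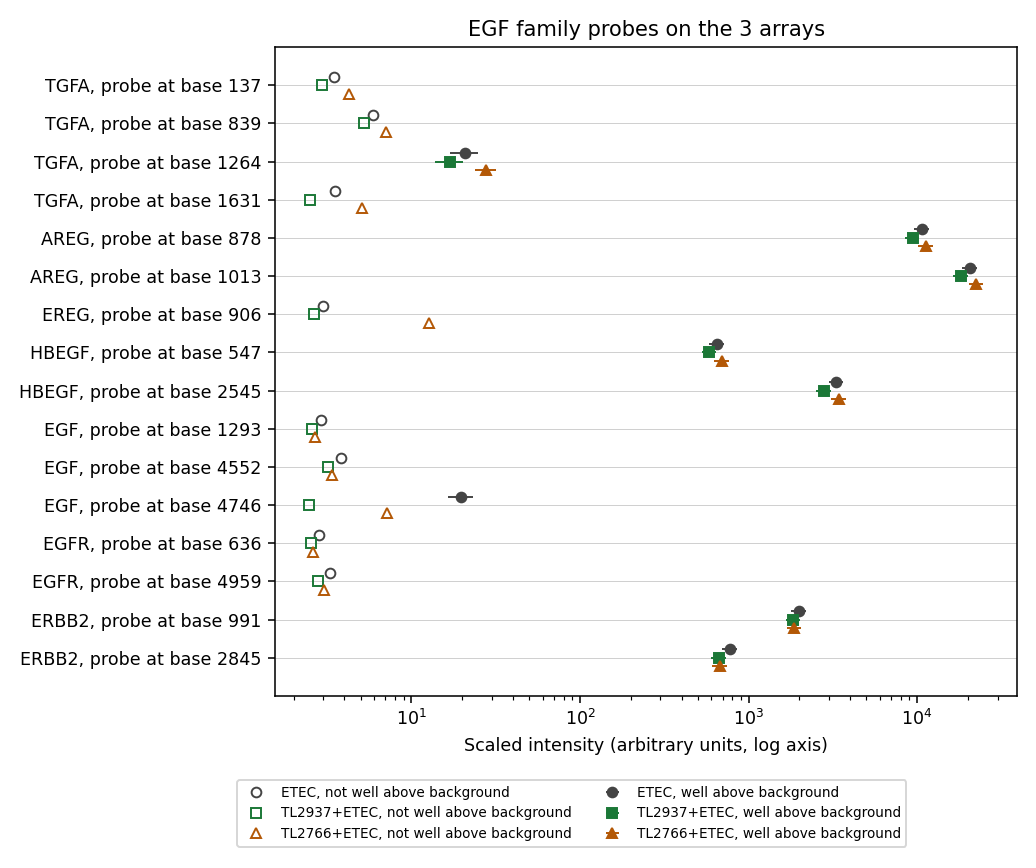
Scaled intensity (log axis) of the 16 EGF family probes on the 3 arrays, with filled points well above background and open points not, and bars for the software error of a detected reading. AREG, HBEGF and ERBB2 probes lie between 585 and 22443, while TGFA at base 1264 and EGF at base 4746 are detected only near 20 and the rest lie below 13.

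Among the receptors, ERBB2 alone gave signal. At base 991 it read 1986 (ETEC), 1845 (TL2937+ETEC) and 1870 (TL2766+ETEC), and at base 2845, in the stretch printed above, 772, 667 and 674. Both lactobacillus arrays were slightly below ETEC at both probes. The log2 differences from ETEC were -0.11 and -0.09 at base 991 and -0.21 and -0.20 at base 2845, for TL2937+ETEC and TL2766+ETEC, each with a software error of 0.20. Between the lactobacillus arrays the difference was -0.02 at both probes, and its sign turned under other scalings, with a range of -0.03 to 0.03 over 6 scalings.

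EGFR, the receptor that binds TGFA, AREG and EGF, was not well above background on any array. Its probe at base 636 read 2.84, 2.53 and 2.59, and its probe at base 4959 read 3.30, 2.80 and 3.01. These readings give no level and do not show that the transcript was absent, since a probe may bind poorly. ERBB3 has no value here.

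Setting TL2937+ETEC against ETEC addressed how the EGF family stood in PAMP-exposed cells that had met L. jensenii first. No EGF family gene differed at least 2-fold on detected probes, 0 of 4, in an array pair where 0.382% of 4976 genes did. At 1.2-fold, 1 of the 4 was lower (TGFA), 0 were higher and 3 lay within 1.2-fold, where 12.4% of all genes were lower and 7.25% higher. All 7 detected probes were below 0, from -0.31 to -0.11, in an array pair where the median gene was below 0 too. Of all genes, 9.69% lay below TGFA, 13.8% below HBEGF, 22.3% below AREG and 34.3% below ERBB2. The median over the 4 genes was -0.21 and that over all genes -0.040. The central 95% of all genes ran from -0.57 to 0.44, and all 4 EGF family genes lay inside it.

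For L. plantarum the same question is addressed by TL2766+ETEC against ETEC. Again 0 of 4 genes differed at least 2-fold, beside 0.566% of 4950 genes. TGFA was 1.32-fold higher and the other 3 lay within 1.2-fold, where 8.08% of all genes were at least 1.2-fold higher and 8.93% lower. The 5 ligand probes were above 0 and the 2 ERBB2 probes below it. Of all genes, 96.4% lay below TGFA, 79.1% below AREG, 63.7% below HBEGF and 27.9% below ERBB2. The median over the 4 genes was 0.09 and over all genes 0.001, and the central 95% of all genes ran from -0.50 to 0.46, with all 4 inside.

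The direct comparison asked where the lactobacilli differed from each other. None of the 4 genes reached 2-fold (0 of 4, beside 0.281% of 4991 genes). At 1.2-fold, 3 of the 4 were lower after TL2937 than after TL2766, namely TGFA, AREG and HBEGF, and ERBB2 lay within 1.2-fold. That count depends on the processing. Over the alternatives the differences ranged from -0.31 to -0.24 for AREG, -0.31 to -0.25 for HBEGF and -0.75 to -0.21 for TGFA. Each of these 3 genes thus lay within 1.2-fold under some alternative. Of all genes, 7.27% were at least 1.2-fold lower in this comparison and 4.23% higher. By probes, 4 of 7 were at least 1.2-fold lower, beside 7.38% of the 25975 probes of the array that were well above background on both arrays. These 4 probes are of the same 3 genes and read the same RNA, so they add nothing to the count of genes. The median over the 4 genes was -0.30, and over all genes -0.043. TGFA, at -0.71, had 0.461% of all genes below it and lay outside the central 95% of -0.46 to 0.35, while AREG had 5.43% and HBEGF 5.55% below them and lay inside. The place of TGFA rests on its dim probe and on the background correction, since with normexp its difference was -0.21.

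**Figure D3:**
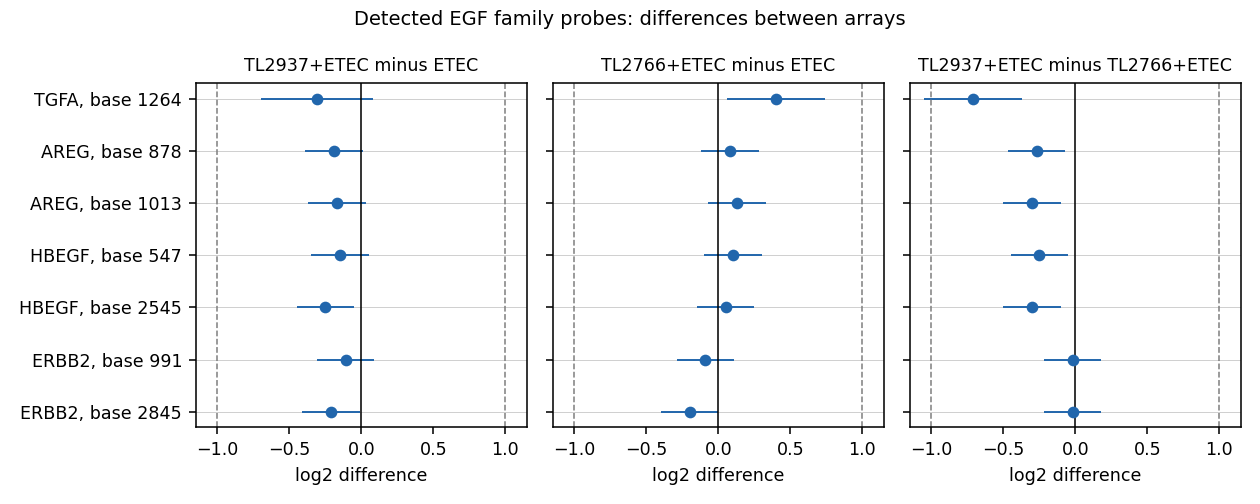
Log2 difference of the 7 EGF family probes detected on all arrays, in the 3 comparisons, with bars for 1 software error on each side and dashed lines at 2-fold. Ligand probes lie left of 0 for TL2937+ETEC and right of 0 for TL2766+ETEC against ETEC, ERBB2 probes lie left of 0 in both, and no point reaches a dashed line.

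The 3 comparisons share arrays, so that only 2 of them are free: a ligand that reads low on the TL2937+ETEC array is low in both comparisons that use it. The 5 ligand probes, of 3 genes, kept their sign in all 6 scalings tried, with ranges of -0.32 to -0.11 for TL2937+ETEC against ETEC, 0.02 to 0.46 for TL2766+ETEC against ETEC and, for the direct comparison, -0.75 to -0.21. The 2 ERBB2 probes kept theirs against ETEC, with ranges of -0.22 to -0.05 and -0.23 to -0.06. Single differences from ETEC were mostly near or below the software error, which was 0.20 for bright probes. The direct differences of AREG and HBEGF, at -0.30 to -0.25, were larger than that error, which does not cover the spread between cultures.

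AREG, HBEGF and ERBB2 had 2 detected probes each, which gave similar differences. Across the 3 comparisons, the log2 differences of the AREG probes were 0.02 to 0.05 apart, those of HBEGF 0.04 to 0.10 and those of ERBB2 0.00 to 0.11. Over all genes with exactly 2 detected probes, the median gap was 0.10 for each comparison with ETEC and 0.09 for the direct one, so that gaps of this size were common. The probes of NRG1 and NRG3, given below, lay further apart against ETEC. The probes of a gene share the RNA sample and the array, so that their likeness says nothing of the spread between cultures.

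**Figure D4:**
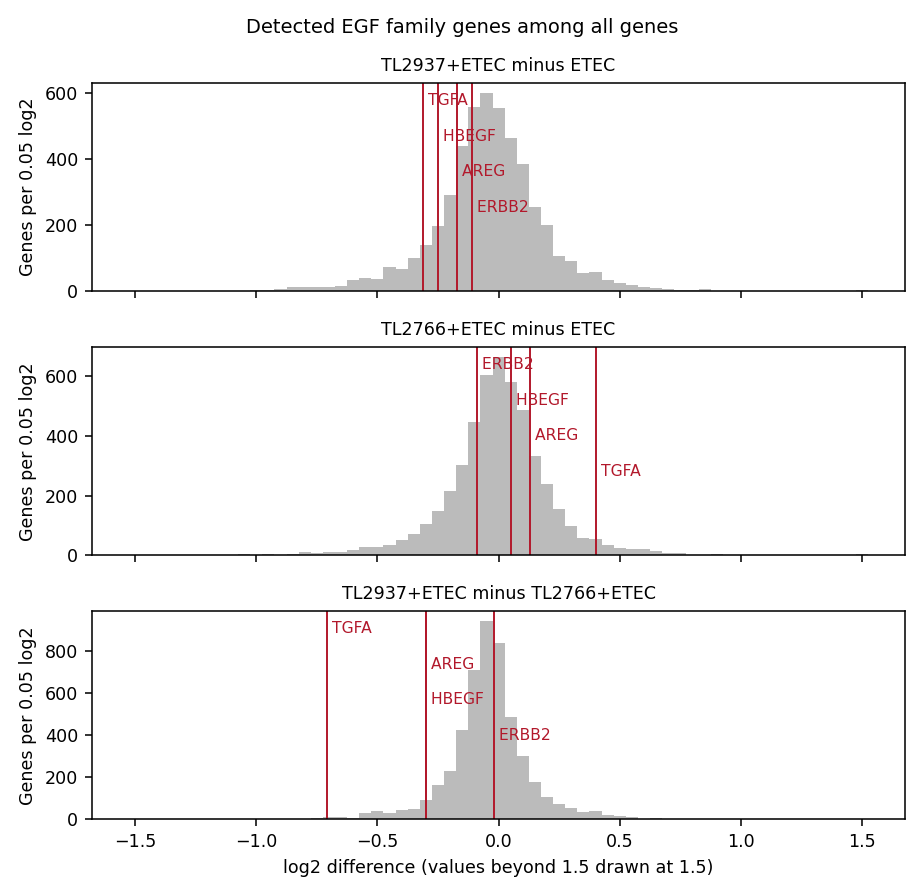
Number of genes by log2 difference (0.05 log2 per bar) in the 3 comparisons, with lines for the 4 EGF family genes detected on all arrays. In the direct comparison TGFA lies at -0.71, in the left tail, AREG and HBEGF at -0.30, and ERBB2 at -0.02, near the centre of all genes.

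Some markers of cell types also differed between these arrays. The endothelial receptor genes TEK (1340, 2419 and 2189) and KDR (532, 798 and 753) were higher on both lactobacillus arrays, with log2 differences of 0.85 and 0.71 for TEK and 0.58 and 0.50 for KDR. The other endothelial markers did not share this, with -0.05 and -0.02 for PECAM1, -0.09 and -0.11 for CDH5, and -0.55 after TL2937 for VWF, which was not well above background after TL2766. The smooth muscle actin gene ACTA2 differed from ETEC by -0.36 and -0.18 at its brightest probe, and its 6 other probes ranged from -0.39 to -0.30 after TL2937 and from -0.71 to -0.17 after TL2766. The epithelial genes OCLN (-0.31 and -0.24) and CLDN7 (-0.11 and -0.04) were below ETEC on both lactobacillus arrays. CDH1, a dim epithelial gene, went the other way after TL2937 (17.2 with ETEC and 25.1 with TL2937+ETEC, 0.54). It was not well above background after TL2766. VIL1, also dim, differed by -0.60 after TL2766 and was not well above background after TL2937. KRT8, dim on all arrays, differed by -0.14 and 0.27 at its brightest probe and by 0.02 and 0.10 at its other detected probe. Their part in the EGF family values was not tested.

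The remaining family members were the ligands BTC, EPGN and NRG1 to NRG4 and the receptor ERBB4. Probes were found for 3 of these 7 genes, BTC, NRG1 and NRG3, and by the brightest probe of each all 3 stood at least 1.2-fold below ETEC after TL2937, where 12.4% of all genes did, and 1 of the 3 after TL2766, where 8.93% did. The medians of -0.39 and -0.06 are those of brightest probes too. The value of -0.39 and the 1 call after TL2766 are those of NRG1, whose other detected probe read above ETEC on both lactobacillus arrays. BTC read 62.9 (ETEC), 43.8 (TL2937+ETEC) and 61.7 (TL2766+ETEC), so that it differed from ETEC by -0.52 and -0.03, with software errors of 0.23 and 0.22. With the normexp correction the BTC differences came to -0.22 and 0.04.

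NRG3, a neuregulin that binds ERBB4, read 63.4, 49.5 and 60.7 at base 473 and 64.9, 41.4 and 47.4 at base 1152. Against ETEC the probes differed by -0.36 and -0.65 for TL2937+ETEC and by -0.06 and -0.45 for TL2766+ETEC. NRG1, a neuregulin that binds ERBB3 and ERBB4, had probes that disagreed. At base 1671 it read 10891, 8319 and 8924, with differences of -0.39 and -0.29. At base 660 it read 3030, 3394 and 3526, with differences of 0.16 and 0.22, and the probe at base 630 was not well above background on any array. The gap of 0.55 and 0.51 between the probes is above the 90th percentile of 0.39 and 0.34 over all genes with exactly 2 detected probes. No direction is therefore given for NRG1 as a gene.

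For the lists that follow, the shares of all genes past 1.2-fold are those given above, 7.25% higher and 12.4% lower after TL2937 and 8.08% higher and 8.93% lower after TL2766. Of 10 genes for the shedding of ligands, 6 had a probe, and in each comparison with ETEC 1 was at least 1.2-fold higher and 5 lay within 1.2-fold. The 1 was ADAM8, a metalloprotease of leukocytes and activated cells, which read 152 (ETEC), 227 (TL2937+ETEC) and 264 (TL2766+ETEC), log2 differences of 0.58 and 0.80. ADAM17, the main protease that releases TGFA, AREG and HBEGF, read 1657, 1503 and 1647 at its brightest probe and differed by -0.14 and -0.01. Its 3 other probes differed by 0.01 to 0.04 and by 0.09 to 0.29, so no direction is given for it. TIMP3, an inhibitor of ADAM17, read 5683, 4979 and 5429 and differed by -0.19 and -0.07. The medians of the list were -0.08 and -0.01.

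Of 18 inhibitors of the receptors and of ERK, 9 had a probe. For TL2937+ETEC 1 was at least 1.2-fold higher, 1 lower and 7 within, and for TL2766+ETEC 0 were higher, 2 lower and 7 within, with medians of -0.09 and -0.03. PTPN6, a phosphatase best known from blood cells, read 113, 85.9 and 91.2, differences of -0.39 and -0.30, with -0.12 and -0.14 at its other detected probe. LRIG3, a membrane protein related to the EGFR inhibitor LRIG1, read 72.2, 93.1 and 73.4 (0.37 and 0.02). CBLB, a ubiquitin ligase that targets activated receptors, read 402, 363 and 315 (-0.15 and -0.35).

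Of 27 signal transducers, 16 had a probe, and 14 of these lay within 1.2-fold of ETEC after TL2937 and all 16 after TL2766. The kinase gene SRC was dim at 41.0, 31.2 and 35.8 and differed by -0.40 and -0.20. The docking protein gene GAB1 read 72.2, 59.6 and 62.0 (-0.28 and -0.22), and STAT3, a transcription factor that EGFR can activate, 261, 225 and 251 (-0.22 and -0.06, with -0.18 to -0.05 and -0.07 to 0.01 at 3 other probes). The median for TL2937+ETEC was -0.05, near that of all genes.

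Of 19 genes whose transcription ERK is known to raise, 11 had a probe. For TL2937+ETEC 3 of 11 were at least 1.2-fold lower, where 12.4% of all genes were, and 0 higher, with a median of -0.17. For TL2766+ETEC 3 of 10 were lower, where 8.93% of all genes were, and 1 was higher, with a median of 0.01. EGR1, an immediate-early transcription factor, read 64.8, 41.8 and 40.1 and differed by -0.63 and -0.69. CCN2 (CTGF), a matrix-associated growth factor, read 26083, 18198 and 17902 (-0.52 and -0.54). Each of these 2 genes was read by 1 probe. VEGFA, a vascular growth factor, read 1696, 1715 and 2265 and differed by 0.02 and 0.42, with -0.04 to 0.20 and 0.36 to 0.38 at 2 other probes. No gene of the 5 lists of other family and pathway genes reached 2-fold on detected probes (0 in each list and comparison).

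**Figure D5:**
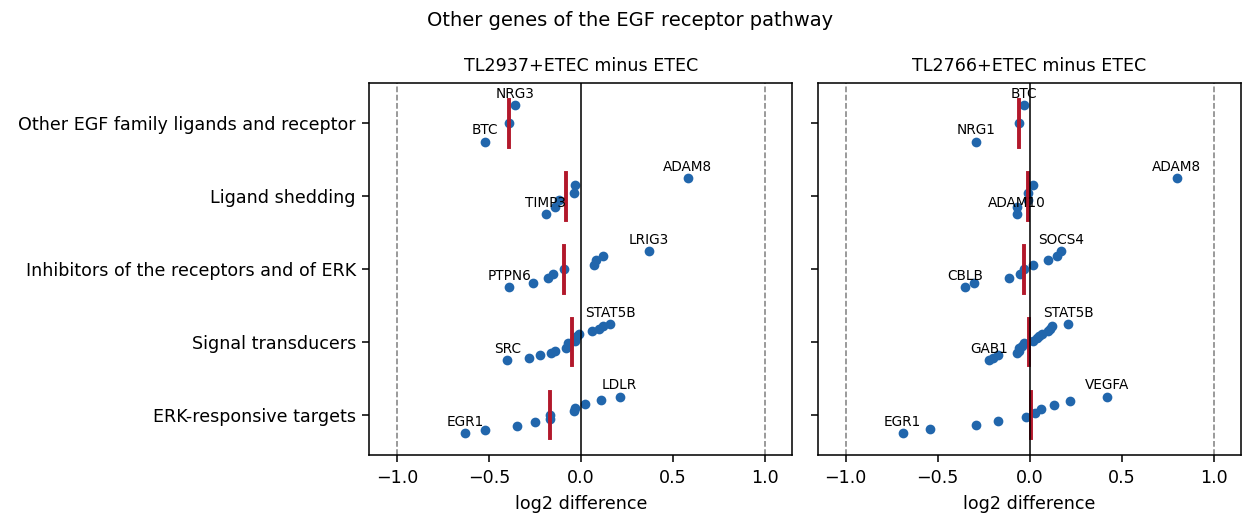
Log2 difference from ETEC of detected genes in the 5 lists of other EGF family and pathway genes, 1 point per gene, with a red bar at the median of each list and dashed lines at 2-fold. ADAM8 stands to the right in both panels (0.58 and 0.80) and EGR1 to the left (-0.63 and -0.69), while the medians lie between -0.39 and 0.01.

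TGFA had the largest difference from ETEC among the 4 EGF family genes detected on all arrays, though with the normexp correction HBEGF, at -0.22, had. The genes closest to TGFA in their pair of differences from ETEC were sought among 4918 genes detected on all 3 arrays, by Euclidean distance on the log2 scale. The nearest was GDF15, a stress-induced cytokine, at a distance of 0.046, which read 617 (ETEC), 496 (TL2937+ETEC) and 790 (TL2766+ETEC), differences of -0.31 and 0.36. The next were PPP1R3C, a glycogen-targeting subunit of protein phosphatase 1, at 0.063 (154, 130 and 203) and GUCY1A2, a subunit of soluble guanylate cyclase, at 0.074 (21.9, 16.9 and 29.7). Only these 3 genes lay within 0.1. Each of these patterns rests on 3 arrays. The search was made at the main values of the dim TGFA probe only. With normexp the TGFA differences from ETEC were -0.20 and 0.02, so the neighbours hold for the main processing alone. GUCY1A2 was as dim as TGFA.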

How the data were processed

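RNA of 3 PIE cultures was hybridised to single-colour Agilent porcine arrays, on 1 slide, each array at its own position, so that array, position and group cannot be told apart. Per the labels' protocols, 200 ng of RNA was labelled with Cy3. Per the file headers, Agilent Feature Extraction 10.7.3.1 produced the processed intensity by spatial background subtraction and detrending, with surrogates for signals near 0, and no normalization between arrays is recorded. The deposited flags for background, saturation and outliers are also that software's. The authors' value table holds the same intensity rounded (largest differences 0.496%, 0.492% and 0.496%, medians 34.1, 37.7 and 35.7), so it is linear and uncentred.

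Here log2 processed intensity minus the array's 75th percentile was used, without control and outlier spots (8, 9 and 4). No spot was saturated (0). Scaled intensity is this value times the geometric mean of the percentiles (481). Spots of a probe were averaged, and the probe with the highest mean stood for a gene. Symbols (13908 of 43603 probes) came from the array and a RefSeq table of assembly Sscrofa11.1. A gene was called at 2-fold, well above background on both arrays. 1.2-fold served as description. The text names all 8 genes, the 3 genes of each pathway list with the largest difference from ETEC that were detected on all arrays, and the 3 nearest to the leading gene. The marker genes named singly were picked from their lists after their values were seen. A marker gene of the leukocyte list is not reported here. The genes and lists were chosen with earlier results of these data known. The 12 alternatives tried include scaling, background correction, filters and thresholds. The 2-fold call was tried on simulated spots with planted fold changes. These had no spread between cultures, so the trial does not bear on that spread or on the 1.2-fold counts. Computation used R 4.3.3 with limma 3.58.1, and Python 3.11.15 with pandas 2.3.3, numpy 2.4.6 and matplotlib 3.10.9.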

Additional observations from a re-analysis of the deposited data

How the results depend on the processing

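The median log2 difference of the EGF family genes kept its sign under all alternatives that gave a value, with ranges of -0.24 to -0.16 (TL2937+ETEC against ETEC), 0.03 to 0.10 (TL2766+ETEC against ETEC) and -0.31 to -0.23 (direct). The count of EGF family genes at least 2-fold apart was 0 in each comparison, and became 1, 2 and 2 with no background filter, through readings not well above background, and 1 in the direct comparison with a 1.5-fold threshold. The counts over all genes, 19, 28 and 14, became 163, 145 and 68 at 1.5-fold, 4, 6 and 2 at 3-fold, 341, 427 and 375 with no background filter, 6, 6 and 0 where both arrays had to lie above the median detected signal, and 7, 7 and 1 with normexp, where 71.4%, 71.4% and 100% of the calls were higher against 63.2%, 57.1% and 28.6%. Of 117 values of EGF family genes under alternatives, 2 moved by more than their error, both of TGFA under normexp, and 3 turned sign, all of ERBB2 in the direct comparison. Many of the 117 could hardly move, so their number overstates the stability. The filters and the kept outlier spots left the values of these genes as they were, and the authors' table holds the same intensity rounded. TGFA had no value under the filter on median signal. No paired analysis was possible because each group had 1 sample. For the same reason no replicate could be left out. Signal over background limits TGFA, EGF, EREG and EGFR.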
